A study of Mus musculus with 3 samples.

Results

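The IFI200 genes of the mouse are a tandem family on chromosome 1 that is induced by interferons. Their products carry a HIN domain, which binds DNA, a pyrin domain for contact with other proteins, or both. Members such as Ifi204 and Aim2 are known as sensors or regulators that respond to foreign or misplaced DNA. In T cells, transcripts of the family are commonly read as part of the response to type I interferon, next to the Ifit genes, whose products bind viral RNA. The 7 genes described here are Ifi203, Ifi206, Ifi208, Ifi209, Ifi213, Ifi214 and Mndal, taken by their symbols from the 33696 genes of the deposited tables. Their identifiers there are ENSMUSG00000039997 (Ifi203), ENSMUSG00000037849 (Ifi206), ENSMUSG00000066677 (Ifi208), ENSMUSG00000043263 (Ifi209), ENSMUSG00000073491 (Ifi213), ENSMUSG00000070501 (Ifi214) and ENSMUSG00000090272 (Mndal). These genes were chosen by earlier results of the same data, in which their levels differed between libraries, so the level differences below are a description and carry no test. Of 15 family symbols looked for, 13 were in the tables, which left 6 measured family genes outside the chosen 7.

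Pmel T cells (Thy1.1+ CD8+ T cells whose transgenic receptor recognizes the melanocyte antigen gp100) were recovered from B16F10 melanomas of C57BL/6 mice and profiled in 3 single-cell libraries. Before transfer the cells had been preconditioned by culture with gp100 peptide and cytokine. The cytokine was sIL-2 (super IL-2, an IL-2 engineered to bind its receptor more tightly), IL-2/21-Trikine, or sIL-2 and IL-21 together. IL-2/21-Trikine is sIL-2 joined to a binder of the IL-21 receptor. The mice then received the low dose cytokine regimen. After transfer of sIL-2 cells or of sIL-2 + IL-21 cells, mice were injected with sIL-2 alone. Mice given IL-2/21-Trikine cells were injected with IL-2/21-Trikine. The sIL-2 + IL-21 library, called the combination below, and the sIL-2 library thus differ, by the methods, in the preconditioning. The IL-2/21-Trikine library differs from both in the preconditioning and in the injected protein. The hosts had been lymphodepleted by irradiation, tumors were taken on day 18 after tumor injection, and live Thy1.1+ CD8+ cells were sorted. No untreated library is part of the set, and how many mice gave each library was not found.

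After limits on quality, 7760 cells under sIL-2, 13299 under IL-2/21-Trikine and 9798 under the combination were kept, with 130200802 to 168041089 UMIs (captured RNA molecules) per library and medians of 10254 to 14055.5 UMIs per cell. Among cells of at least 2000 UMIs, each reduced by random draw to 2000, at least 99.7% carried a UMI of the 7 T cell markers. The kept cells of fewer UMIs, 266 under sIL-2, 1775 under IL-2/21-Trikine and 364 under the combination, are not in this share. Between any pair of libraries, 18 to 41 cell barcodes were shared. Dendritic cell markers summed to 0.216 CPM or less. Myeloid markers summed to 37.5 CPM under sIL-2, 31.8 CPM under IL-2/21-Trikine and 21.8 CPM under the combination. Hemoglobin genes reached 68.7 CPM with sIL-2 against 0.120 and 0.476 CPM in the other libraries. With 1 library per treatment there are no replicates, treatment and library cannot be told apart, and every interval in brackets is an exact 95% interval that covers counting error only.

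The start of each member's promoter is shown first because all 7 share a short run of bases there. Sequences came from RefSeq (GRCm38.p6), which gave 9 start sites for the 7 genes, and each stretch holds 66 bases. In each line the capitals mark the longest run present at a start site of every member, AAATCGAAAG, together with the base before it where that base completes GAAANNGAAA. That pattern is the core of the interferon-stimulated response element (ISRE), a promoter site through which interferons act on their target genes. The first set holds Ifi203 at chr1:173942489-173942554 (minus strand) and Mndal at chr1:173880185-173880250 (minus strand).
Ifi203: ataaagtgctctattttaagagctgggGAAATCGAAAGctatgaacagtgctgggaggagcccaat
Mndal: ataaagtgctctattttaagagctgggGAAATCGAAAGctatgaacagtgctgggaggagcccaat
These stretches were identical over all 66 bases. A second set holds Ifi206 at chr1:173491320-173491385 (minus strand), Ifi208 at chr1:173673580-173673645 (plus strand) and Ifi213 at chr1:173599307-173599372 (minus strand).
Ifi206: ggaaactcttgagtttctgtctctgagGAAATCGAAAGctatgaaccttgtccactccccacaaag
Ifi208: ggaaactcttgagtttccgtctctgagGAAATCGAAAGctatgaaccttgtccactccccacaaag
Ifi213: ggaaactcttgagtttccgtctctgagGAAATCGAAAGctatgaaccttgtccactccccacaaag
Ifi208 and Ifi213 were identical here, and Ifi206 matched each of them at 65 of 66 bases. The last set holds Ifi209 at chr1:173630753-173630818 (plus strand) and Ifi214 at chr1:173535998-173536063 (minus strand).
Ifi209: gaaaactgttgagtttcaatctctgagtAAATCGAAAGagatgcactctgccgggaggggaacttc
Ifi214: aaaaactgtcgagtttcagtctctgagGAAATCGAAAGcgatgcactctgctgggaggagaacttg
Ifi209 and Ifi214 matched at 58 of 66 bases, or 87.9%, while members of different sets matched at 54.5% to 66.7%.

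The shared run began between position -34 (Ifi203) and position -78 (Ifi209 and Ifi214), counted from the start site of transcription. Of all 32851 promoter stretches in the table, each from 250 bases before to 50 after a start, 12 held this run on either strand, each of a different gene. The 7 members are among them by construction, since the run was chosen as one that all of them hold. The count is therefore not a test of how particular the run is to the family. GAAANNGAAA was searched on both strands and was found in 6 of 7 members, the exception being Ifi209, and in 3.99% of all 27025 genes. Among the other family genes with an entry it was found in 3 of 5, among the Ifit genes in 5 of 6, and among other interferon-stimulated genes in 10 of 21. The gamma-activated site TTCNNNGAA, read the same way, was in none of the 7 members, in 1 of 6 Ifit genes, in 5 of 21 other interferon-stimulated genes and in 9.55% of all genes. Such a match describes letters in a window and is not a measured binding site.

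All 7 members were lowest in the combination library, and the remaining libraries divided them. Ifi203 and Mndal were highest with IL-2/21-Trikine, and Ifi206, Ifi208, Ifi209, Ifi213 and Ifi214 with sIL-2. Levels are in CPM, the summed UMIs of a gene in the kept cells, scaled to the same total in each library. Mndal was at 332 CPM [328, 335] under sIL-2, 366 CPM [364, 369] under IL-2/21-Trikine and 233 CPM [231, 236] under the combination. Ifi203 was at 138 CPM [136, 140], 158 CPM [156, 159] and 88.1 CPM [86.7, 89.5] in the same order. For both genes the intervals of the 3 libraries were apart. Their order between IL-2/21-Trikine and sIL-2 was not kept at like depth, as given below.

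Ifi209 was at 153 CPM [151, 155] under sIL-2, 142 CPM [140, 144] under IL-2/21-Trikine and 67.5 CPM [66.3, 68.8] under the combination. In that order, Ifi214 was at 104, 85.9 and 29.8 CPM. Ifi206 was at 74.5, 65.2 and 26.7 CPM. These 3 genes had the same order of libraries, with a small step from sIL-2 to IL-2/21-Trikine and a larger step to the combination. Ifi213 was at 66.6, 54.7 and 20.7 CPM. The lowest member, Ifi208, was at 34.5 CPM [33.5, 35.5], 26.6 CPM [25.9, 27.4] and 10.5 CPM [9.98, 10.97]. UMIs mark transcript ends and were not scaled by length, so the order of genes on this scale is not read further.

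Added up, the 7 members gave 902 CPM [897, 907] under sIL-2, 899 CPM [894, 903] under IL-2/21-Trikine and 477 CPM [473, 480] under the combination. The sum does not show the opposite order of the pair Ifi203 and Mndal and the other 5 genes. Its log2 ratio for IL-2/21-Trikine over sIL-2 was -0.01 [-0.02, 0.01], not a detectable difference in UMIs summed over all cells. Among cells of like depth, described below, the ratio was -0.26 [-0.31, -0.21] at 2000 to under 8000 UMIs per cell. It was -0.24 [-0.28, -0.20] at 8000 to under 20000 and -0.03 [-0.10, 0.04] at 20000 or more. Over the 5533 genes with a mean of at least 20 CPM, the medians in these classes were -0.14, -0.09 and -0.05. Some letters of transcript ends are shared within the family: of 90-base words in the last 500 bases of GENCODE transcripts, 37.1% of those of Ifi209 also occur in Ifi214 and 20.6% of those of Ifi214 in Ifi209. For Ifi206, Ifi208, Ifi213 and Mndal the share found in any other gene was 7.54% to 12.1%, and for Ifi203 it was 1.05%. The division of reads between Ifi209 and Ifi214 is therefore less certain than for the other members.

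**Figure D1:**
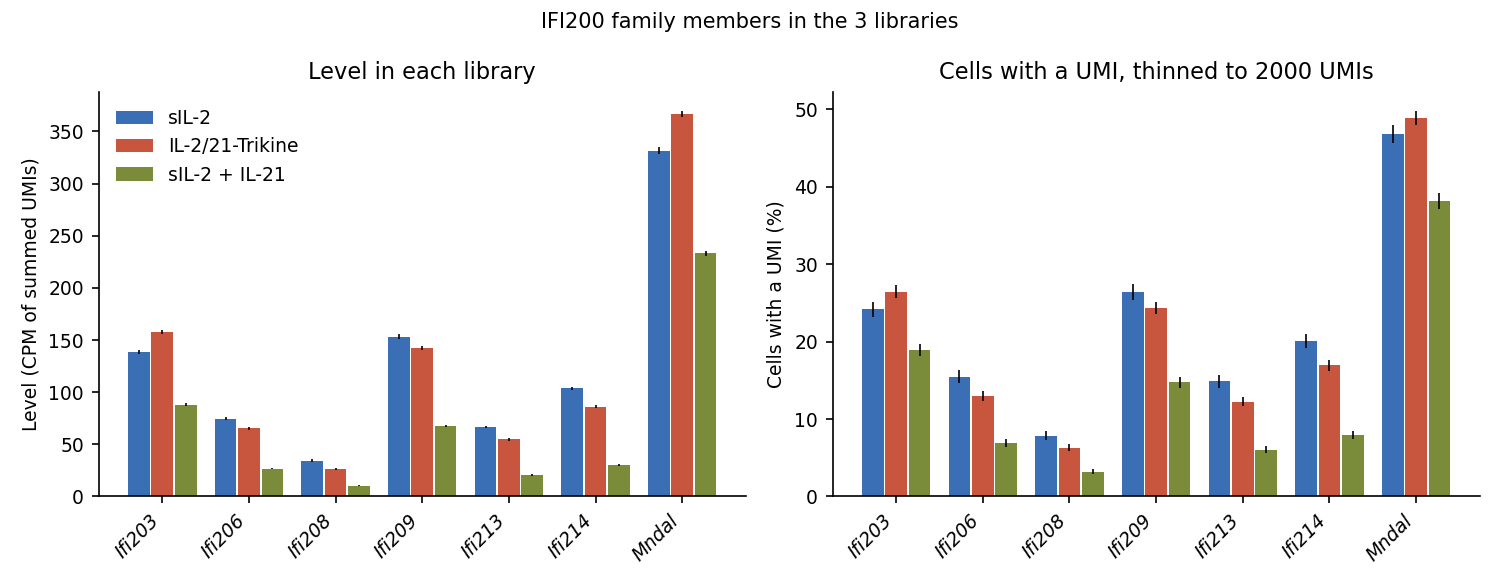
The left panel plots the level of each member in CPM of summed UMIs, and the right panel the percentage of cells with a UMI after each cell was reduced to 2000 UMIs, with bars for the sIL-2, IL-2/21-Trikine and combination libraries and exact 95% counting intervals. The combination bar is the lowest for every gene, while the IL-2/21-Trikine bar is the highest only for Ifi203 and Mndal.

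Ratios between libraries are on the log2 scale of CPM, and 0.5 was the size counted. For sIL-2 over the combination, all 7 members were higher by more than 0.5, against 11.3% of the 11275 genes with a mean of at least 1 CPM, of which 7.29% were lower by as much. Their median ratio was 1.48, against 0.08 over all genes. Ifi214 had the highest ratio at 1.80 [1.75, 1.84], or 3.47-fold, followed by Ifi208 at 1.72 [1.64, 1.80] and Ifi213 at 1.68 [1.63, 1.74], which overlapped each other. Mndal lay at 0.51 [0.49, 0.53], with an interval that holds the size counted. With other ways to scale the counts or choose cells, Mndal ranged from 0.41 to 0.53 and passed 0.5 in 4 of 8, while the other 6 members passed it in all 8. In cells with a T cell marker and no myeloid, B cell, melanoma or erythroid marker, the median of the members was 1.52.

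For IL-2/21-Trikine over the combination, the 7 members were again higher by more than 0.5, against 4.65% of all genes, with 5.66% lower. The median was 1.29, against 0.00 over all genes, and the range ran from 0.65 [0.63, 0.67] for Mndal to 1.53 [1.48, 1.57] for Ifi214. Ifi203 stood next to Mndal at 0.84 [0.81, 0.87], and the other members were at 1.07 or more. This comparison and the one before share the combination library, so they are not separate evidence. Between IL-2/21-Trikine and sIL-2, no member passed 0.5 in either direction, against 3.45% of all genes higher and 7.42% lower. Here the median of the members was -0.19, against -0.08 over all genes, with Ifi208 lowest at -0.37 [-0.43, -0.31] and Ifi203 highest at 0.19 [0.16, 0.22].

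**Figure D2:**
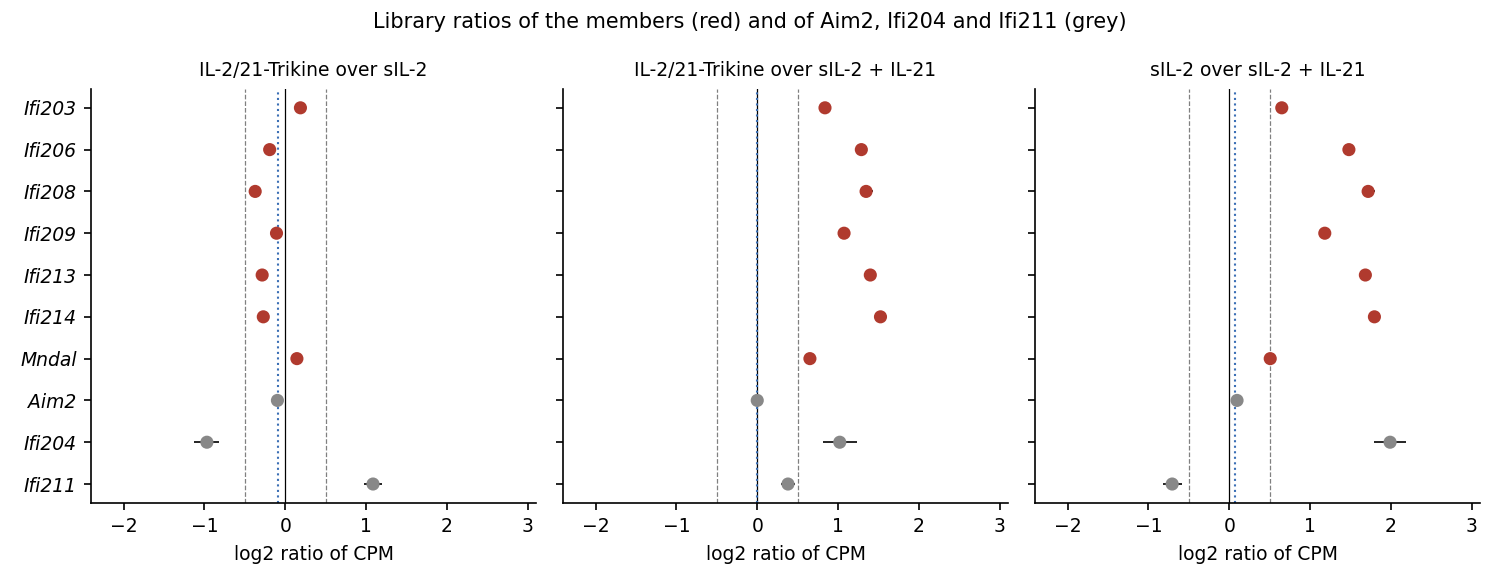
Each panel plots, for a pair of libraries, the log2 ratio of CPM of the 7 members (red) and of Aim2, Ifi204 and Ifi211 (grey) with exact 95% counting intervals. Dashed lines mark 0.5 either way and the dotted line the median of all genes. The combination is labelled sIL-2 + IL-21, here and in the other plots. Members sit right of 0.5 in the middle and right panels, with Mndal at the line in the right one, and within 0.5 of 0 in the left panel.

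The other measured genes of the family did not all follow the members. Aim2, the cytosolic DNA sensor of the inflammasome, lay at 120, 113 and 113 CPM with sIL-2, IL-2/21-Trikine and the combination, with log2 ratios of -0.10, 0.00 and 0.10 in the 3 pairs. Unlike the chosen genes, it showed no difference of the size counted in any pair of libraries. The chosen genes were taken with their differences known, so part of this contrast follows from the choice. Ifi211 had another order, at 6.56 CPM under sIL-2, 13.9 CPM under IL-2/21-Trikine and 10.7 CPM under the combination, and 59.4% of its terminal words also occur in Ifi205 or Mndal. Ifi204 was at 6.57, 3.36 and 1.65 CPM, a ratio of 1.99 [1.79, 2.19] for sIL-2 over the combination. Ifi205 and Ifi207 stayed below 1 CPM in each library. No UMI of Ifi202b was found, and the limit set for a count of 0, which is 3 counts, is 0.0230 CPM in the sIL-2 library.

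More of the genes around interferon were compared in lists that had been put together with earlier results known. All 5 Ifit genes with a mean of at least 1 CPM were higher with sIL-2 than with the combination by more than 0.5, with a median of 2.44, and Ifit3 was at 40.4 CPM with sIL-2, at 25.5 CPM with IL-2/21-Trikine and at 6.53 CPM with the combination. In the comparison of IL-2/21-Trikine with sIL-2, 3 of these 5 Ifit genes were lower by more than 0.5, with a median of -0.66. No member was lower by as much over all cells, and the members' median was -0.19. As sums, the 6 Ifit genes were at 83.4 CPM with IL-2/21-Trikine and 129 CPM with sIL-2, and the members at 899 and 902 CPM. Of 29 further interferon-stimulated genes, 29 were higher with sIL-2 than with the combination by more than 0.5 (median 1.21), the lowest ratio being 0.50. For IL-2/21-Trikine over sIL-2, 11 of these were lower by more than 0.5 (median -0.41). Over all genes, 11.3% were higher in the first of these comparisons and 7.42% lower in the second. The widest ratio among the 29 belonged to Rsad2, the antiviral enzyme viperin, at 23.9, 11.8 and 3.70 CPM. Oasl1, Oas2 and Oasl2, of the family that senses double-stranded RNA, came next, with ratios of 2.51, 2.41 and 2.35 for sIL-2 over the combination.

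Genes that carry the interferon signal differed less. Of 13 such genes, 5 were higher with sIL-2 than with the combination by more than 0.5 and none lower. Over all genes 11.3% were higher and 7.29% lower by as much. The median of the 13 was 0.41. Stat2, a transcription factor of the type I interferon response, was at 31.7, 26.1 and 19.0 CPM with sIL-2, IL-2/21-Trikine and the combination, and the kinase Jak2 at 182, 108 and 81.2 CPM. Socs3, an inhibitor of cytokine receptors, was at 12.5, 6.97 and 7.81 CPM. Among 11 DNA-sensing genes, Zbp1 and Samhd1 were the 2 that passed 0.5 for sIL-2 over the combination, at 1.06 and 0.995. So small a count is not read as a result about DNA sensing, since 11.3% of all genes were higher by as much. Ikbke was at 0.49 and Gsdmd at 0.35. Ifng, the type II interferon gene, was at 875, 617 and 665 CPM, and no UMI of Ifnb1 or Ifna4 was found in any library.

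In single cells the share with a UMI had the same order of libraries as the level, gene by gene. To set equal depth, each cell was reduced (thinned) by random draw to 2000 UMIs, which left out 266 cells under sIL-2, 1775 under IL-2/21-Trikine and 364 under the combination. Mndal was then seen in 46.8% [45.7, 47.9] of cells under sIL-2, 48.8% [47.9, 49.7] under IL-2/21-Trikine and 38.1% [37.2, 39.1] under the combination. Without this step the shares were 87.7%, 81.3% and 85.2%, and since the libraries differ in depth no order is read from them. Ifi203 was seen in 24.2%, 26.5% and 18.9% of the reduced cells. Its intervals for sIL-2 [23.2, 25.2] and IL-2/21-Trikine [25.7, 27.3] were narrowly apart.

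Ifi214 was seen in 20.03% of reduced cells under sIL-2, 16.9% under IL-2/21-Trikine and 7.90% under the combination. For Ifi208 the shares were 7.85%, 6.29% and 3.19%. Ifi206, Ifi209 and Ifi213 ranged from 14.9% to 26.4% with sIL-2 and from 6.03% to 14.7% with the combination. Without reduction, these 5 genes ran from 31.7% for Ifi208 to 70.5% for Ifi209 with sIL-2. A cell population without these genes was not at hand to measure free RNA, since only 5, 9 and 2 barcodes had 10 or more melanoma UMIs. Of those with a median of 10119 UMIs in the sIL-2 library, 4 of 5 carried Mndal and 0 of 5 Ifi208, so a background was not measured.

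Cells often carried several members at once. At 2000 UMIs, at least 1 member was seen in 73.4% [72.3, 74.4] of cells under sIL-2, 74.0% [73.2, 74.8] under IL-2/21-Trikine and 58.2% [57.2, 59.2] under the combination. Cells with at least 4 of the 7 were 10.6% [9.87, 11.3], 8.20% [7.71, 8.72] and 2.99% [2.65, 3.35]. Pairs of members had correlations over cells of 0.09 to 0.26 on the log scale of UMIs, where all points of a library share its depth and handling. In each library the pair with the highest value was Ifi203 and Mndal, at 0.26, 0.22 and 0.20. Ifi208 and Ifi213, whose promoter stretches are also identical to each other, correlated at 0.18, 0.13 and 0.12. They were seen in fewer cells than Ifi203 and Mndal in each library. Some terminal words of Mndal also occur in Ifi203. The part of promoters, shared words or the share of cells in these correlations was not tested. The reduced cells numbered 7494, 11524 and 9434.

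Levels of the members climbed with the number of Ifit UMIs in the cell. The 6 Ifit genes were summed in each cell at 2000 UMIs, and 16.3% [15.5, 17.2] of cells under sIL-2, 13.2% [12.6, 13.8] under IL-2/21-Trikine and 6.19% [5.71, 6.70] under the combination had at least 1. With sIL-2, the summed members were at 842 CPM in cells with 0 Ifit UMIs, 1825 CPM with 1, 3003 CPM with 2 to 4 and 4619 CPM with 5 or more. With IL-2/21-Trikine the same classes gave 860, 1667, 2953 and 4949 CPM. With the combination they gave 567, 1209, 2387 and 3750 CPM, the last from 16 cells [3109, 4484]. In each library every class was above the one before it.

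**Figure D3:**
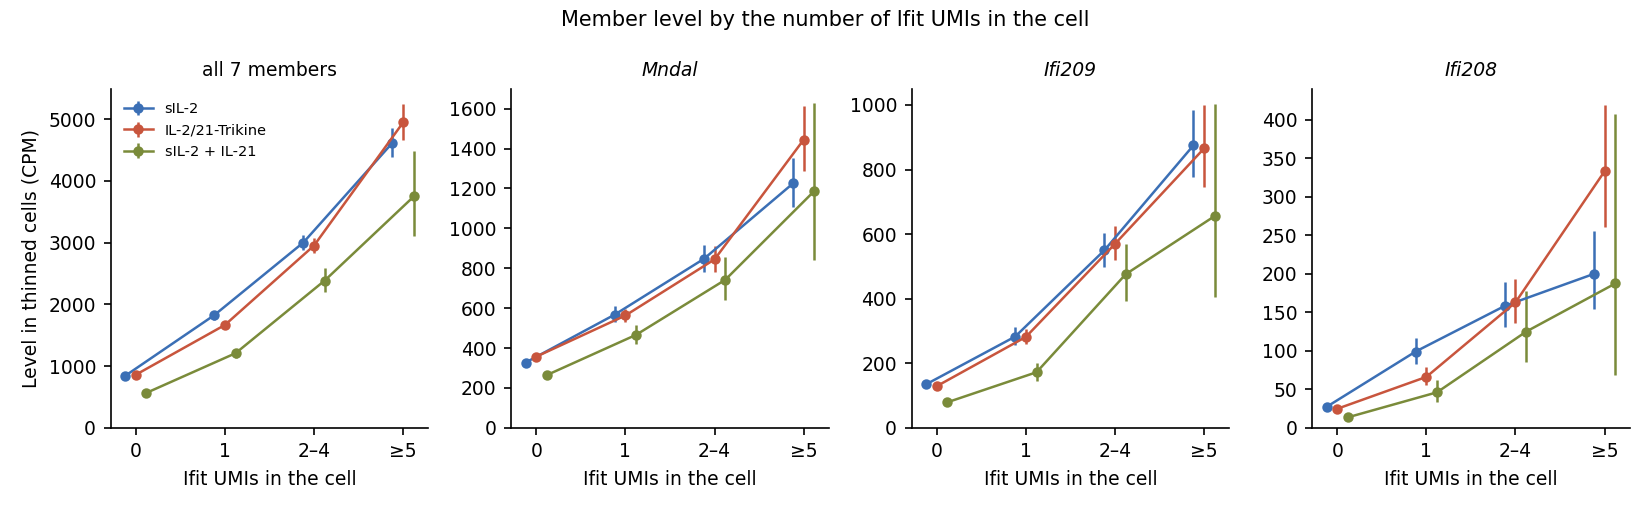
The panels plot the level in CPM of the summed members, Mndal, Ifi209 and Ifi208 in cells with 0, 1, 2 to 4 and 5 or more Ifit UMIs, all at 2000 UMIs per cell, with a line for each library and exact 95% counting intervals. Each line climbs from left to right, and the combination line lies below the others at 0 and 1 Ifit UMIs.

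The slope differed between members. Mndal had the smallest log2 ratio of cells with an Ifit UMI over cells without, at 1.18 [1.10, 1.26] under sIL-2, 0.97 [0.90, 1.04] under IL-2/21-Trikine and 1.04 [0.92, 1.16] under the combination. Ifi208 had the largest, at 2.27 [2.04, 2.49], 2.17 [1.96, 2.37] and 2.29 [1.90, 2.66]. Within each library the intervals of these genes were apart. For the summed members the ratio was 1.60, 1.38 and 1.43.

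Most member UMIs still came from cells in which no Ifit UMI was seen. With sIL-2, cells with an Ifit UMI held 37.2% of the members' UMIs, with IL-2/21-Trikine 28.4% and with the combination 15.1%. By gene these shares ran, in the sIL-2 library, from 30.6% for Mndal to 48.4% for Ifi208. Among cells with no Ifit UMI, 69.5%, 71.2% and 56.6% carried at least 1 member. At 2000 UMIs a cell that expresses an Ifit gene can show none. The correlation of the summed members with the summed Ifit genes over cells was 0.46, 0.38 and 0.26. The share of cells with an Ifit UMI fell in the same order of libraries, and its part in the correlation was not tested.

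Within cells of like Ifit class, the summed members were still lower with the combination. In cells with 0 Ifit UMIs the log2 ratio of the summed members was 0.57 [0.53, 0.61] for sIL-2 over the combination and 0.60 [0.57, 0.64] for IL-2/21-Trikine over the combination. By gene, the first of these ran from 0.17 [0.08, 0.27] for Ifi203 and 0.31 for Mndal to 1.33 [1.19, 1.46] for Ifi214. In cells with 1 or more Ifit UMIs the summed ratios were 0.74 [0.67, 0.82] and 0.55 [0.48, 0.63], and with 2 to 4 Ifit UMIs they were 0.33 [0.20, 0.46] and 0.31 [0.18, 0.44]. For sIL-2 over the combination, Ifi203, Ifi208, Ifi209 and Mndal had intervals that hold 0 with 2 to 4 Ifit UMIs. With 5 or more, every member did. The class of 0 can hold cells that express an Ifit gene, and depth before reduction was not held in these classes. For IL-2/21-Trikine over sIL-2, Ifi203 and Mndal were higher in cells with 0 Ifit UMIs, at 0.26 [0.17, 0.35] and 0.13 [0.07, 0.18]. In cells with an Ifit UMI, Ifi203 was at -0.16 [-0.28, -0.04] and Mndal at -0.08 [-0.17, 0.01]. Cells with an Ifit UMI differ in how many they hold, and in the narrower classes of 1, of 2 to 4 and of 5 or more Ifit UMIs Ifi203 was at -0.08, 0.02 and 0.03, each with an interval that holds 0. In those classes Mndal was at -0.01 [-0.14, 0.12], 0.00 [-0.16, 0.15] and 0.24 [0.02, 0.46], so with 5 or more Ifit UMIs it was higher with IL-2/21-Trikine. Ifi208 was also higher there, at 0.74 [0.23, 1.25], against its lower level over all cells. This rests on 72 UMIs in 108 cells with IL-2/21-Trikine and 64 UMIs in 160 cells with sIL-2. The class has no upper bound, so the number of Ifit UMIs was not held in it. The summed members there were at 0.10 [-0.02, 0.21].

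Depth moved with the members and was looked at for that reason, after the values above were known. Cells of fewer UMIs had higher member levels even after each was reduced to 2000 UMIs, with correlations of -0.26, -0.21 and -0.30 between the summed members and the log of the cell's UMIs. In cells of 2000 to under 8000 UMIs the summed members were at 1779 CPM under sIL-2, 1484 CPM under IL-2/21-Trikine and 1030 CPM under the combination. In cells of 8000 to under 20000 UMIs they were at 1114, 944 and 659 CPM, and in cells of 20000 or more at 722, 708 and 333 CPM. In each depth class the combination library was lowest in the sum. For IL-2/21-Trikine over sIL-2 the log2 ratio of the sum was -0.26 [-0.31, -0.21], -0.24 [-0.28, -0.20] and -0.03 [-0.10, 0.04] from the lowest to the highest depth class. The medians over genes with a mean of at least 20 CPM were -0.14, -0.09 and -0.05 in the same order. For Ifi203 and Mndal the distance was smaller at 8000 to under 20000 UMIs, where sIL-2 over the combination was at 0.30 [0.19, 0.42] and 0.37 [0.30, 0.45] and IL-2/21-Trikine over the combination at 0.26 [0.16, 0.37] and 0.33 [0.26, 0.40], so neither gene passed 0.5 there, while the other 5 did. Of the 5533 genes with a mean of at least 20 CPM, 10.7% passed it in this class for sIL-2 over the combination and 1.99% for IL-2/21-Trikine over the combination. In cells of 2000 to under 8000 UMIs the same 5 members passed it for IL-2/21-Trikine over the combination, against 1.48% of genes. Cells with an Ifit UMI followed depth too, with shares of 28.9%, 15.9% and 9.16% in the 3 depth classes of the sIL-2 library, and the ratio of summed members in cells with over without an Ifit UMI stayed between 0.82 and 1.55 in the 9 classes.

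Held within a depth class, the order of IL-2/21-Trikine and sIL-2 for Ifi203 and Mndal was not kept. In cells of 2000 to under 8000 UMIs both were lower with IL-2/21-Trikine, at -0.25 [-0.37, -0.13] for Ifi203 and -0.17 [-0.26, -0.09] for Mndal. Over the 5533 genes with a mean of at least 20 CPM the median in this class was -0.14, which both intervals hold. At 8000 to under 20000 UMIs Ifi203 and Mndal were at -0.04 [-0.14, 0.06] and -0.05 [-0.11, 0.02], against a median of -0.09. At 20000 or more they were at 0.13 [-0.05, 0.31] and 0.15 [0.04, 0.26], against a median of -0.05. The other 5 members had negative ratios in every depth class. At 8000 to under 20000 UMIs, Ifi208, Ifi213 and Ifi214 were lower by more than 0.5, at -0.59 [-0.81, -0.38], -0.68 [-0.83, -0.53] and -0.59 [-0.70, -0.47], against 10.1% of the 5533 genes with a mean of at least 20 CPM. The intervals of Ifi208 and Ifi214 hold -0.5. At 20000 or more UMIs only Ifi208 was lower by as much, at -0.88 [-1.36, -0.40], against 7.52% of those genes. At 8000 to under 20000 UMIs the pair Ifi203 and Mndal thus still lay above Ifi208, Ifi213 and Ifi214, with intervals apart. The pair's own ratios in that class could not be told from 0.

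**Figure D4:**
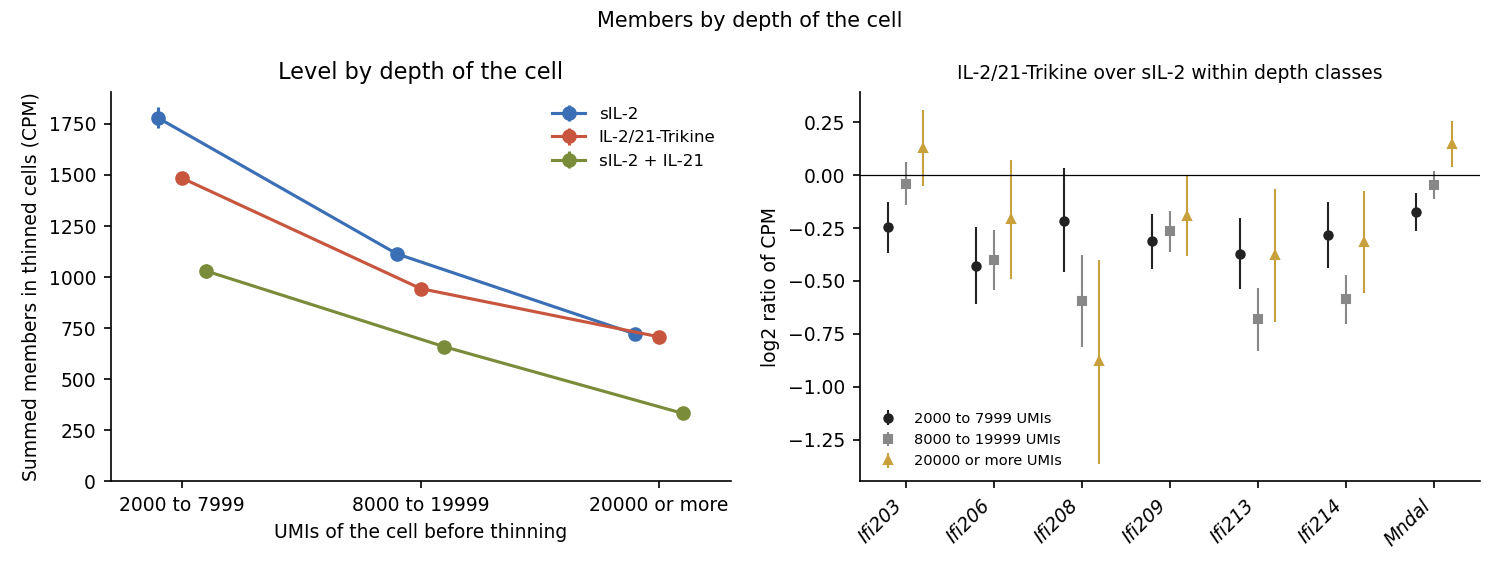
The left panel plots the summed members in CPM against the UMIs of the cell before reduction to 2000, with a line per library, and the right panel the log2 ratio of each member for IL-2/21-Trikine over sIL-2 in the same 3 depth classes, with exact 95% counting intervals. Levels fall with depth in each library, and on the right Ifi203 and Mndal lie above the other 5 genes at 8000 to under 20000 and at 20000 or more UMIs.

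Cells with a UMI of Tcf7, the transcription factor of stem-like T cells, had higher levels of every member. The log2 ratio of the summed members in cells with over without Tcf7 was 0.58 [0.53, 0.64] under sIL-2, 0.43 [0.38, 0.48] under IL-2/21-Trikine and 0.91 [0.83, 0.99] under the combination. All 21 ratios of 7 members in 3 libraries had intervals above 0, from 0.29 to 1.82. No share over all genes is at hand to set beside such counts. Here and for the other kinds of cell below they are descriptions only. The Ifit genes summed had ratios of 0.98, 0.79 and 1.77 for the same cells. Cells with Tcf7 were shallower, with medians of 7782 to 9918 UMIs against 11995 to 15174 without. Among cells of 8000 to under 20000 UMIs the summed members still had ratios of 0.54 [0.46, 0.62], 0.41 [0.33, 0.49] and 0.38 [0.23, 0.53], and 17 of 21 intervals were above 0.

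For cells with a UMI of dividing cell genes or of granzyme genes, the picture at like depth was another. Cells with a UMI of Mki67 or Top2a, genes of dividing cells, were 19.3%, 29.3% and 33.8% of cells with sIL-2, IL-2/21-Trikine and the combination. Their summed ratios were -0.20, -0.20 and -0.39, and 17 of 21 intervals lay below 0. Ifi214 had the lowest value, -1.14 with the combination, while Mndal was between -0.19 and 0.00. These cells were deep, with medians of 18198 to 22801.5 UMIs, and among cells of 8000 to under 20000 UMIs the summed ratios were 0.19, 0.11 and 0.02, with 5 of 21 intervals above 0 and 2 below. Both of the latter belonged to Ifi214, at -0.86 [-1.26, -0.48] with the combination and -0.25 [-0.46, -0.05] with IL-2/21-Trikine, while with sIL-2 this gene was at 0.45 [0.22, 0.68]. Cells with a UMI of Gzmc, Gzmd, Gzme, Gzmf or Gzmg were 41.6%, 41.5% and 72.2% of cells, so most cells of the combination library. Their summed ratios were -0.38, -0.25 and -0.50, with 20 of 21 intervals below 0. In the middle depth class these were -0.06, 0.05 and 0.02, with 5 intervals below 0 and 3 above. At like depth, with IL-2/21-Trikine and with the combination, both kinds of cell thus had member intervals above 0 and others below 0. With sIL-2, no interval lay below 0 for dividing cells and none above 0 for granzyme cells.

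Cells with a UMI of terminal markers or of cytokine and chemokine genes had small differences. Cells with a UMI of Havcr2 or Entpd1, which encode TIM-3 and CD39, were 24.4%, 12.5% and 24.0% of cells. Their summed ratios were -0.19, -0.13 and -0.24, and at 8000 to under 20000 UMIs -0.08, -0.10 and -0.08. Cells with a UMI of Il2, Il3, Ccl3 or Ccl4, genes induced by antigen, were 52.7%, 47.6% and 48.7% of cells. Their summed ratios were -0.19, -0.24 and -0.17. With the depth class held, those ratios were -0.23 [-0.29, -0.17], -0.35 [-0.41, -0.30] and -0.19 [-0.27, -0.12], with 13 of 21 member intervals below 0 and none above. These summed ratios stayed below 0 in each library, unlike those of dividing and granzyme cells. For markers listed for other cells the direction varied, with few cells behind some values. A UMI of such a list does not show that a sorted cell is of another type. In cells with over without a myeloid marker UMI the summed members were at 0.09 [-0.04, 0.21], 0.06 [-0.07, 0.20] and -0.17 [-0.34, 0.00]. With an NK marker UMI (Ncr1, Klrb1c or Eomes), seen in 180 to 231 cells per library, they were at -0.29 [-0.45, -0.13], 0.19 [0.05, 0.32] and 0.34 [0.18, 0.49]. With a melanoma marker UMI, seen in 36 to 70 cells, they were at -0.53 [-0.94, -0.15], -0.25 [-0.52, 0.01] and 0.08 [-0.31, 0.44]. The part of these cells in the library differences was not tested beyond the count in T cells free of myeloid, B cell, melanoma and erythroid markers.

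**Figure D5:**
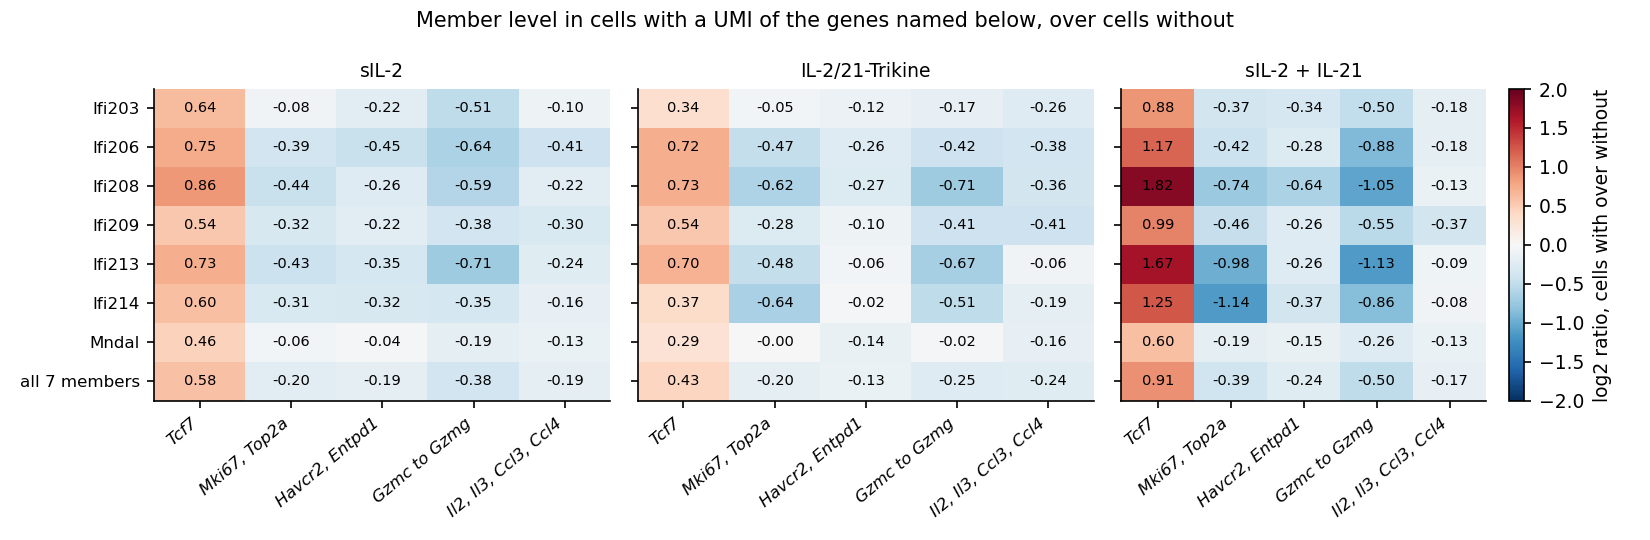
Each panel is a library, with members as rows and gene lists as columns, and the color and number give the log2 ratio of the level in cells with a UMI of the list over cells without, at 2000 UMIs per cell and without regard to depth before reduction. The Tcf7 column is positive for every member in the 3 libraries, and the Mndal row holds the values closest to 0 for Tcf7, the dividing cell genes and the granzymes.

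Genes most like the members across cells were searched among 5519 genes with a mean of at least 20 CPM, by the correlation over cells with the summed members, averaged over the 3 libraries. Among the first 10 were Epsti1, Isg15, Ifit3, Samhd1, Ms4a4b, Ly6c2, Trim30a, Shisa5 and Slfn1, at 0.34 down to 0.26. Over all 5519 genes the median was 0.00 and the 95th percentile 0.09. Epsti1 and Isg15, a ubiquitin-like protein induced by interferon, were at 0.34 and 0.33. Of the 10, 4 were on the Ifit and interferon-stimulated lists. Ms4a4b and Ly6c2, surface proteins of lymphocytes, were at 0.28 each. Malat1 is a nuclear RNA often read as a sign of RNA quality. It correlated with the summed members at 0.25 for sIL-2 and at 0.23 in each other library. The mitochondrial share correlated with them at 0.02 to 0.05, and the log of the cell's UMIs before reduction at -0.26, -0.21 and -0.30. The part of RNA quality or depth in the values above was not tested. All are descriptions over cells that share a library.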

How the data were processed

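Single cells were profiled with 3' gene expression chemistry. What the authors deposited is unnormalized UMI counts, from Cell Ranger 9.0.0 with intronic reads, for the cells it called. The methods name a GRCm39 reference and the submitters' processing notes mm10, so no coordinates of the counted genes are given, and promoter positions are those of RefSeq GRCm38.p6. Cells with 500 to 120000 UMIs and at most 20% mitochondrial UMIs were kept, 30857 of 31026. Doublets were not called, and 1 alternative left out the 5% of cells with most UMIs. Levels were summed UMIs as CPM. Cells were reduced to 2000 UMIs without replacement with a fixed seed. Intervals were exact Poisson, Clopper-Pearson or conditional binomial. With 1 library per treatment no test was run. The members and the gene lists were chosen with earlier results of these data known. Named genes were the members, the other family genes, the Ifit genes, up to 4 genes of each list by the widest ratio at a mean of 1 CPM or more, and the 10 genes most like the summed members at 20 CPM or more, without receptor segments. The values of 1 gene named by this rule are not reported here. On simulated counts of 11275 genes for each of the 3 comparisons, 100% of 200 genes changed by 1 log2 unit were recovered, and 95.0% to 95.5% of intervals held the true ratio. The simulated counts held counting error alone, which is what the intervals assume, and no spread between cells, mice or libraries. They therefore check the calculation and not how far the ratios would repeat. Tools were Python 3.11.15, numpy 2.4.6, scipy 1.17.1, pandas 2.3.3, matplotlib 3.10.9, and edgeR 4.0.16 under R 4.3.3 for TMM factors only.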

Additional observations from a re-analysis of the deposited data

How the results depend on the processing

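With 1 library per treatment no library could be left out, and no paired analysis was possible because each group holds 1 library. The members' ratios kept their sign under 8 alternatives on cells and scaling, but the depth classes below and the Ifit classes turned some for IL-2/21-Trikine over sIL-2. Under the 8, Ifi203 ranged from 0.04 to 0.29 and Mndal from 0.03 to 0.24 in that pair of libraries. Their order between IL-2/21-Trikine and sIL-2 thus rests on small differences. These alternatives were stricter limits on cells (at least 1000 UMIs and at most 10% mitochondrial), all deposited cells, median-of-ratios and TMM scaling, equal weight of cells, reduction to 2000 UMIs, T cells free of other markers, and removal of the deepest 5% of cells. Under these, the count of members past 0.5 was 0 of 7 between IL-2/21-Trikine and sIL-2, 7 of 7 between IL-2/21-Trikine and the combination, and 6 or 7 of 7 between sIL-2 and the combination. In the ratio of IL-2/21-Trikine to sIL-2, the median of the members was -0.11 with median-of-ratios scaling, -0.092 with TMM, -0.28 with equal weight of cells and -0.26 at 2000 UMIs. The median over the combination was 1.04 with equal weight and 1.03 at 2000 UMIs for IL-2/21-Trikine, while sIL-2 had 1.40 with median-of-ratios, 1.38 with TMM, 1.31 with equal weight and 1.29 at 2000 UMIs. The cause of these shifts was not tested. With a minimum of 10 CPM in place of 1 CPM the members kept their values, while the share of all genes higher by over 0.5 was 2.56%, 3.18% and 9.89% in the 3 comparisons, and with 1 UMI in every library it was 11.5%, 14.1% and 18.8%. The shares lower by as much were 5.41%, 2.86% and 5.2% with the first minimum and 16.2%, 14.9% and 14.9% with the second. For both pairs that hold the combination, Ifi203 and Mndal fell short of 0.5 in the middle depth class, and against IL-2/21-Trikine also in the lowest.

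Shares of cells with any member followed depth by construction. With sIL-2 they were 54.7% at 1000 UMIs, 89.2% at 5000 UMIs and 95.9% without reduction, with IL-2/21-Trikine 55.7%, 90.4% and 91.4%, and with the combination 39.3%, 80.7% and 93.1%. The log2 ratio of summed members in cells with over without an Ifit UMI was 1.75, 1.62 and 1.84 (sIL-2, IL-2/21-Trikine, the combination) with Ifit1 and Ifit3 alone, 1.52, 1.21 and 1.26 at 5000 UMIs, and 1.33 with another seed for IL-2/21-Trikine.

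Depth classes were added after seeing the data. In the ratio of IL-2/21-Trikine to sIL-2, the median over genes with a mean of at least 20 CPM was -0.14, -0.09 and -0.05, from the lowest to the highest class. The median of the members was -0.28 and -0.40 at 2000 to under 8000 and 8000 to under 20000 UMIs in the ratio of IL-2/21-Trikine to sIL-2, with 3 members past 0.5 in the latter and 1 at 20000 or more UMIs, against 10.1% and 7.52% of genes lower by as much, and with intervals that hold -0.5 for 2 of the 3 and for the 1. Over the combination the medians in the 3 classes were 0.65, 0.85 and 1.13 for IL-2/21-Trikine, and sIL-2 had 0.99, 1.26 and 1.81. The ratio of cells with over without an Ifit UMI was 1.40, 1.55 and 1.25 (sIL-2), 1.30, 1.23 and 0.97 (IL-2/21-Trikine), and 1.35, 1.07 and 0.82 (combination).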
